A study of Drosophila melanogaster with 4 samples.

Results

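The proteins of the cytosolic ribosome were followed in RNA that was recovered with the SR-family splicing factor dASF/SF2 from Drosophila melanogaster larvae. Members were the array probes with exactly 1 gene symbol, where that symbol began with RpL or RpS followed by a digit (or RpLP), or was sta. The rule goes by name only and also takes in relatives such as RpL24-like and RpLP0-like, known in yeast from large-subunit assembly. The rule found 39 of 12236 named genes, with 47 of 15744 probes: 28 probes of 24 large-subunit genes and 19 probes of 15 small-subunit genes. The same name rule finds 93 genes in RefSeq, and those without a probe named here were not analysed here. A value on all 4 arrays was present for 43 of the 47 probes (38 genes), 26 of the large and 17 of the small subunit, against 12847 probes of the whole array.

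The study asked which mRNAs dASF/SF2 may bind in the developing eye. GMR, a driver active in the developing eye, was combined with a transgene for either GFP-dASF/SF2 or GFP-NLS (GFP with a nuclear localisation signal), the control, so that both groups carried the GFP tag and the driver. RNA was precipitated with an anti-GFP antibody from the pooled anterior ends of 600 third-instar larvae, an extract that holds other tissues beside the eye discs in which the driver is active. Each of the 4 two-colour arrays set a GFP-dASF/SF2 IP (immunoprecipitate) against a GFP-NLS IP, with dASF/SF2 in Cy5 on 2 arrays and in Cy3 on 2. The labels number the arrays of each dye orientation by replicate. Same-numbered arrays were taken as dye-swapped pairs, which the labels do not state, so n = 2 replicates throughout. Whether the replicates are separate cultures of larvae is not labelled, and p-values then reflect sample-to-sample variation that may be technical only.

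The ribosome joins a small subunit, which holds the mRNA and reads its codons, to a large subunit, which makes the peptide bond and sends the chain through an exit tunnel. Ribosomal protein mRNAs are short and abundant in growing tissue, and in flies the loss of 1 copy of many of these genes gives the Minute phenotype of slow growth and short bristles. SR proteins such as dASF/SF2 bind RNA through RNA-recognition motifs and are known for their part in splicing.

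A value below is the authors' deposited log ratio of a probe, centred on the median of its array. Neither the base of the logarithm nor the numerator of the ratio is stated in the sources used here, so no fold is given. The sign of the arrays with dASF/SF2 in Cy3 was turned. A turned value measures the difference between the IPs if the deposited values are dye ratios, and the unturned mean measures it if they are ratios of 1 sample to the other. Since this is not settled, both are given, and positive and negative sides are assigned to neither IP. A ratio also carries no level: eye or other tissue markers cannot be checked for presence, and fewer cells of a type cannot be told apart from less RNA per cell. Values on the 4 arrays are printed in the order Cy5 replicate 1, Cy5 replicate 2, Cy3 replicate 1, Cy3 replicate 2, where the dye is that of the dASF/SF2 IP.

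Ribosomal protein probes as a group lay close to the middle of the array. Of the 43 probes measured on all arrays, 21 had a positive turned mean and 22 a negative one, where 51.3% and 48.7% of all probes tested did. Their median turned mean was -0.003, against 0.0042 over all 12847 probes. On unturned values 19 of the 43 had a positive mean, where 53.2% of all probes did, and the median was -0.0092. The turned interquartile range of all probes, from -0.104 to 0.094, held 28 of the 43. By limma's moderated test 0 of the 43 passed the threshold of 0.05 after adjustment over all probes, and 0% of all probes did. An unadjusted p under 0.05 was found for 7 members, 1 positive and 6 negative, where 23.2% of all probes had one (9.57% positive and 13.6% negative), so the members' share of 16.3% was not above the background. The same sign on all 4 turned arrays was found for 12 of the 43, 3 positive and 9 negative, against 28.1% of all probes (12.1% positive and 16.1% negative).

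The members spread less than all probes on each array. Over member probes the SD was 0.189 on Cy5 replicate 1 and 0.177 on Cy5 replicate 2, against 0.26 and 0.25 over all probes. It was 0.201 on Cy3 replicate 1 and 0.235 on Cy3 replicate 2, against 0.232 and 0.345. On those 2 arrays the initiation factors, at 0.116 and 0.215, and the mitochondrial ribosomal proteins, at 0.141 and 0.154, spread less than the members. Single members with wide swings between arrays stood beside many that stayed near 0 on average, as the plot of all members by array shows.

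**Figure D1:**
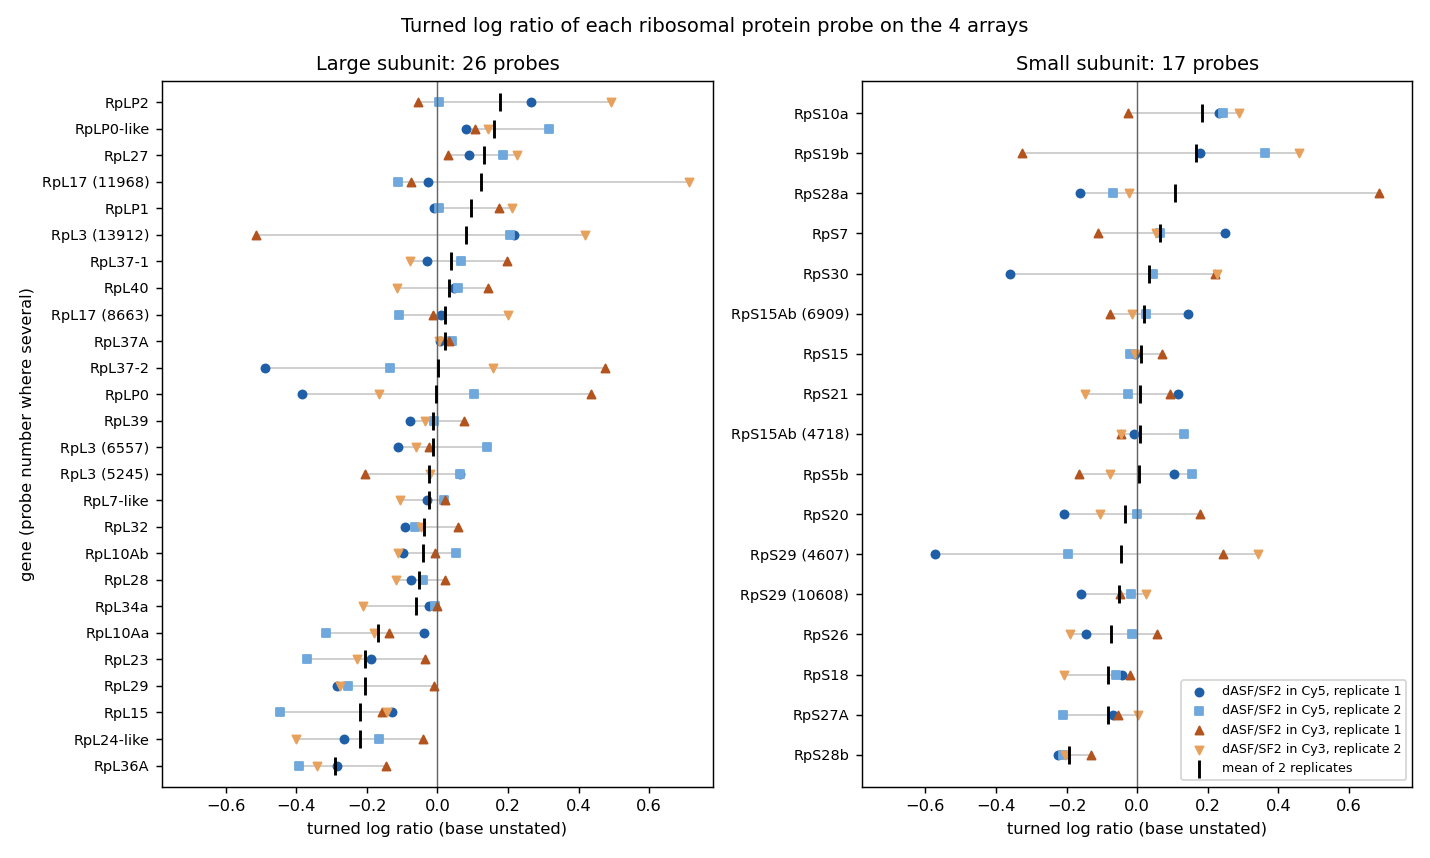
Turned log ratio (x axis, base unstated) of the 26 large-subunit and 17 small-subunit probes measured on all arrays, sorted by their mean; symbols stand for the 4 arrays, the black tick for the mean of 2 replicates and the grey line for the range. RpL36A has the lowest mean (-0.291) with all 4 arrays negative, while RpS29 (4607) and RpL37-2 split by dye.

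The subunits were compared by their means over probes. The large subunit had a turned mean of -0.0264 ± 0.0034 (SD, n = 2 replicates), and the small subunit one of 0.0027 ± 0.0202. On the 4 arrays the large-subunit mean was -0.0712, -0.0448, 0.0135 and -0.0032, and the small-subunit mean -0.0549, 0.012, 0.0316 and 0.0219, so neither kept its sign over the arrays. The large-subunit mean was -0.0055 without Cy5 of replicate 1, -0.016 without Cy5 of replicate 2 and -0.0399 without Cy3 of replicate 1, and the small-subunit mean was 0.0243 and -0.019 without the first and the last of these. Large minus small was -0.0163, -0.0568, -0.0181 and -0.0251, so by means the large subunit stood below the small one on each turned array. Over the replicates this difference of means was -0.0291 ± 0.0168 on turned values and -0.0075 ± 0.0119 on unturned values. The turned medians on the 4 arrays were -0.0345, -0.0025, -0.005 and -0.0695 for the large subunit. Those of the small subunit were -0.044, -0.015, -0.027 and -0.015. By medians the large subunit thus stood above the small one on all arrays but Cy3 of replicate 2.

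The order of the subunits depended on which genes were counted. Of the members, 11 genes were set apart as further copies or relatives of another ribosomal protein gene, 6 of the large subunit (RpL7-like, RpL10Aa, RpL24-like, RpL34a, RpL37-2 and RpLP0-like) and 5 of the small (RpS5b, RpS10a, RpS15Ab, RpS19b and RpS28a). Without them the difference was 0.0217 ± 0.0118 on turned values, with the large subunit at -0.0189 and the small at -0.0406, so its sign was reversed. With medians in place of means it was -0.0066 ± 0.0306. No test was made of the difference, since the genes were chosen with results of these data known.

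**Figure D2:**
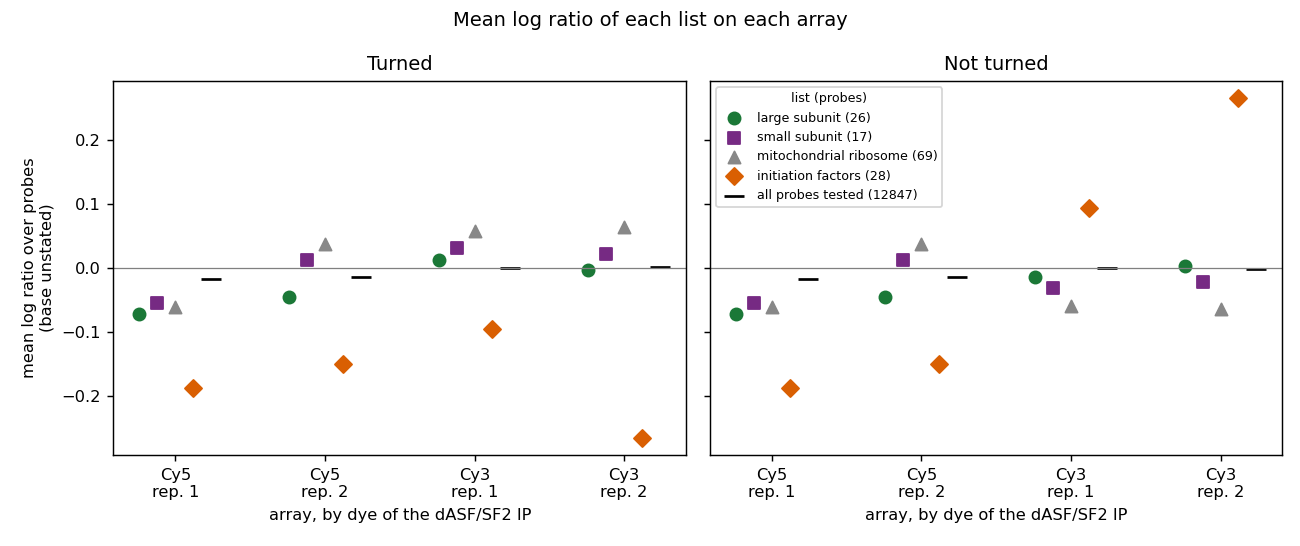
Mean log ratio over probes (y axis, base unstated) of 5 lists on each array (x axis, by dye of the dASF/SF2 IP and replicate), with the Cy3 arrays turned on the left and not turned on the right. Both ribosomal subunits stay within 0.0712 of 0 on every array, and the mitochondrial ribosomal proteins within 0.0639. The initiation factors lie between -0.0945 and -0.265 on all turned arrays, but at 0.0945 and 0.265 on the Cy3 arrays when not turned.

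In the large subunit the 6 lowest turned means belonged to probes that were negative on all 4 arrays. RpL36A (Entrez 34098), a protein of the tRNA exit site, had -0.284, -0.393, -0.145 and -0.342. Its mean was -0.29 ± 0.11, at percentile 4.9 of all probes tested (limma, adjusted p = 0.125). With the replicate number as a block, a fit that takes the 4 arrays as observations, RpL36A (limma, adjusted p = 0.036) was the 1 member called, where 8.71% of all probes were called. The correlation within a block used by that fit was negative, at -0.408. Fits of the 4 arrays without the block, or with a dye term, called 0 members and 0 of all probes.

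RpL24-like, a relative of RpL24 known in yeast as a factor of large-subunit assembly, had -0.265, -0.167, -0.041 and -0.401. Its mean was -0.22 ± 0.09. RpL15, a core protein of the large subunit, had -0.128, -0.447, -0.156 and -0.142, so that 1 array, Cy5 of replicate 2, stood well below the others. Its mean of -0.22 ± 0.11 was -0.142 without that array.

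RpL29, a small basic protein, had -0.285, -0.254, -0.01 and -0.275. The value near 0 came from Cy3 of replicate 1. RpL23, which lies at the face where the subunits join, had -0.188, -0.371, -0.035 and -0.228. Cy3 of replicate 1 gave the value nearest to 0 for RpL23 also. RpL10Aa, of the mobile stalk beside the tRNA exit site, had -0.039, -0.315, -0.137 and -0.18. The means of RpL29, RpL23 and RpL10Aa were -0.21 ± 0.08, -0.21 ± 0.13 and -0.17 ± 0.11. Adjusted p-values by limma lay between 0.125 and 0.244 for these 6 probes, and 5 of them (all but RpL10Aa) had an unadjusted p under 0.05. These were all such probes among the 26 of the large subunit, a share of 19.2%. Of all probes tested, 23.2% had one on either side and 13.6% on the negative side. The next probe up, RpL34a, was also negative on all arrays but at a mean of -0.061 ± 0.069.

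On the positive side of the large subunit, RpLP2 had the highest mean, followed by RpLP0-like and RpL27. RpLP0-like, a relative of the stalk protein RpLP0 known in yeast from large-subunit assembly, was positive on all 4 arrays, at 0.081, 0.316, 0.105 and 0.142 (mean 0.16 ± 0.10, adjusted p = 0.249 in limma). RpL27 was positive on all 4 arrays as well, at 0.09, 0.187, 0.031 and 0.224 (mean 0.13 ± 0.10, adjusted p = 0.332 in limma). The third member with this pattern, the zinc-binding protein gene RpL37A, was near 0 throughout, at 0.008, 0.04, 0.034 and 0.005. None of the 3 had an unadjusted p under 0.05.

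The acidic stalk, which draws translation factors to the large subunit, was covered by its 3 genes. RpLP2 had 0.265, 0.003, -0.055 and 0.493, with a mean of 0.18 ± 0.10 (adjusted p = 0.22 in limma) that was 0.054 without Cy3 of replicate 2 and 0.299 without Cy5 of replicate 2. RpLP1 had -0.011, 0.004, 0.175 and 0.21, so its 2 clear values were those with dASF/SF2 in Cy3, and its mean was 0.09 ± 0.02. That mean was 0.048 and 0.043 without Cy3 of replicates 1 and 2, and 0.146 without Cy5 of replicate 2. RpLP0, the base of the stalk, had -0.383, 0.104, 0.434 and -0.167, with a mean of -0.003 ± 0.040. Its arrays went both ways within each dye orientation.

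In the small subunit, RpS28b stood lowest and was the most even member of the whole set past an unadjusted p of 0.05. RpS28b (Entrez 31897), which lies near the exit of the mRNA channel, had -0.224, -0.21, -0.132 and -0.204. Its mean was -0.19 ± 0.02, with an adjusted p of 0.18 by limma and a range of -0.17 to -0.216 when any 1 array was left out. RpS18, of the head of the subunit, was the other small-subunit probe negative on all 4 arrays, at -0.044, -0.06, -0.02 and -0.206 (mean -0.083 ± 0.071, adjusted p = 0.512 in limma). RpS27A, made as a fusion with ubiquitin, was negative on 3 arrays, at -0.069, -0.21 and -0.055, and 0.003 on the last. RpS26, also of the mRNA exit channel, had -0.144, -0.015, 0.055 and -0.191.

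No small-subunit probe was positive on all 4 turned arrays. RpS10a, a copy known for expression in the gonads, had 0.233, 0.243, -0.027 and 0.289. Its mean was 0.18 ± 0.12 (adjusted p = 0.214 in limma), and it was the 1 positive member with an unadjusted p under 0.05 (0.0491). RpS19b, known from the germ line, had 0.177, 0.361, -0.325 and 0.459. The 1 negative value again came from Cy3 of replicate 1, and the mean of 0.17 ± 0.34 was smaller than its spread. RpS28a had -0.161, -0.069, 0.684 and -0.024, so its mean of 0.11 ± 0.22 came from 1 array and was -0.104 without Cy3 of replicate 1. RpS30, which is joined to a ubiquitin-like protein in its precursor, had -0.361, 0.046, 0.22 and 0.227. RpS7 was measured on all arrays by 1 of its 3 probes, at 0.248, 0.066, -0.11 and 0.054.

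The further copies and relatives were also set beside the other members within each subunit. The 6 small-subunit probes of this kind had turned means from 0.0048 (RpS5b) to 0.184 (RpS10a), with a mean of 0.082 ± 0.053 (SD, n = 2), whereas the other 11 had a mean of -0.0406 ± 0.0023. By array the former had means of 0.0817, 0.1415, 0.0073 and 0.0977, and the latter -0.1295, -0.0586, 0.0449 and -0.0194. The order was thus reversed on Cy3 of replicate 1. By medians it was reversed on both Cy3 arrays, at -0.0615 and -0.0195 for the former and 0.055 and -0.007 for the latter. In the large subunit the 6 further copies and relatives, RpL24-like and RpLP0-like among them, had a mean of -0.0515 ± 0.0322. The other 20 probes had one of -0.0189 ± 0.0141. On unturned values the small-subunit copies had a mean of 0.0295 ± 0.0108 and the other probes -0.0534 ± 0.0478. The large-subunit copies and relatives had -0.0365 ± 0.0883 on that scale and the other probes -0.0301 ± 0.0067. These splits are given as values with no test.

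Both genes of a pair were measured on all arrays in 4 cases. RpS28a minus RpS28b was 0.063, 0.141, 0.816 and 0.18, positive on all 4 turned arrays, with means of 0.107 and -0.193 and the largest difference by far on Cy3 of replicate 1. On unturned values the order was the other way, with means of -0.223 for RpS28a and -0.0245 for RpS28b. On turned values, RpLP0-like minus RpLP0 was 0.464, 0.212, -0.329 and 0.309. RpL10Aa minus RpL10Ab was 0.058, -0.368, -0.129 and -0.067. RpL37-2 minus RpL37-1 was -0.46, -0.2, 0.28 and 0.236, which split by dye and left a mean of -0.036. Copies and relatives can share sequence, and how far each probe also binds RNA of the other gene is not known here.

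Unturned values picked out other members. RpS29, a zinc-binding protein of the small-subunit head, had a probe (4607) with deposited values of -0.564, -0.184, -0.238 and -0.341, negative on all 4 arrays whichever dye dASF/SF2 carried. Its unturned mean was -0.34 ± 0.10, with an unadjusted p of 0.00904 and an adjusted p of 0.752 by limma. RpL37-2 had deposited values of -0.48, -0.121, -0.47 and -0.157, with an unturned mean of -0.31 ± 0.24 (unadjusted p = 0.0344, adjusted p = 0.752 in limma). These were the 2 members with an unadjusted p under 0.05 on this scale, where 5.57% of all probes had one. Their turned means were -0.047 and 0.002, so each scale gave a different set of members.

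The third lowest unturned mean was that of RpS28a at -0.22 ± 0.28. The highest unturned means were those of RpL3 (probe 13912) at 0.13 ± 0.33, RpS5b at 0.13 ± 0.01 and RpS19b at 0.10 ± 0.21. RpS5b, a copy known from the ovary, was positive on all 4 unturned arrays, with deposited values of 0.115, 0.168, 0.171 and 0.076. The same unturned sign on all 4 arrays was found for 5 of the 43 probes, a share of 11.6% against 13.6% of all probes. The unturned mean was larger in size than the turned mean for 20 of the 43 members, where this was so for 41.9% of all probes.

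**Figure D3:**
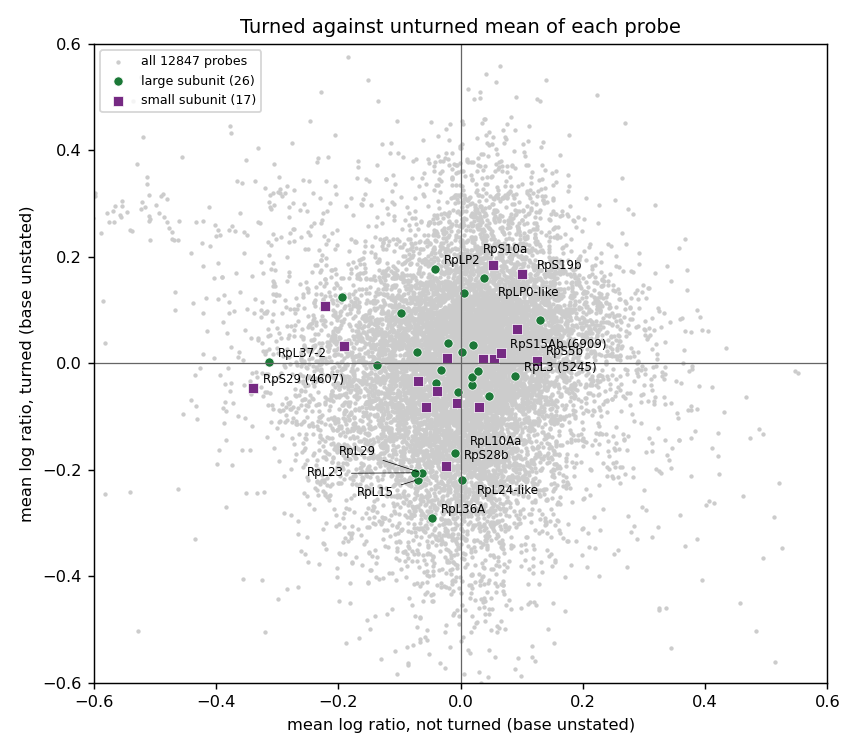
Mean turned log ratio (y axis) against mean unturned log ratio (x axis, both with base unstated) of each probe, with all 12847 probes tested in grey, large-subunit probes as green circles and small-subunit probes as purple squares; 195 probes lie outside the axes. RpL36A, RpL15, RpL23, RpL29 and RpL24-like lie low on the turned axis near 0 on the other, and RpS29 (4607) and RpL37-2 lie far left near 0 on the turned axis.

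Probes of 1 gene agreed only in part. RpL3, which lies at the peptidyl transferase centre, had 4 probes, 3 of them measured on all arrays with turned means of -0.024 (probe 5245), -0.014 (6557) and 0.082 (13912). Probe 13912 had 0.218, 0.206, -0.513 and 0.417, while 6557 had -0.112, 0.14, -0.024 and -0.06. The fourth probe (15224) had 0.079, -0.215 and 0.301 on the 3 arrays that measured it. RpL17, of the exit tunnel, had 1 probe at 0.011, -0.109, -0.014 and 0.2 and another at -0.027, -0.113, -0.074 and 0.712. The mean of the latter, 0.12 ± 0.25, was -0.082 without Cy3 of replicate 2.

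The second RpS29 probe (10608) had deposited values of -0.15, -0.005, 0.056 and -0.024, with an unturned mean of -0.038 against the -0.339 of probe 4607. Its turned mean of -0.051 was close to the -0.047 of probe 4607, but the single arrays differed. Turned values were -0.16, -0.018, -0.05 and 0.024 for probe 10608. For probe 4607 they were -0.574, -0.197, 0.244 and 0.341, opposite values that nearly cancelled in its mean. The 2 probes of RpS15Ab had turned means of 0.008 and 0.02. The value of RpS29 on the unturned scale therefore rests on 1 of its 2 probes.

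The 4 probes missing from at least 1 array are given by the arrays that measured them. RpL22-like, known from the testis, had turned values of 0.117, -0.072 and 0.475, without Cy3 of replicate 1. RpS7 had 1 probe (16) at 0.199 and -0.257 on Cy5 of replicate 2 and Cy3 of replicate 1, and another (14576) at -0.123 on Cy5 of replicate 2 alone. The fourth was the RpL3 probe given above.

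The remaining members had turned means near 0. Of the large subunit, RpL32, a common reference gene in fly expression work, had -0.092, -0.064, 0.057 and -0.048. RpL40, made as a fusion with ubiquitin, had 0.048, 0.059, 0.143 and -0.115. RpL28, RpL39, RpL7-like, RpL10Ab and RpL37-1 had turned means between -0.053 and 0.038. Of the small subunit, RpS20, RpS15 and RpS21 had turned means between -0.034 and 0.0095, although RpS20 had -0.207, -0.001, 0.179 and -0.105 on the single arrays.

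Arrays could be compared over the members alone on unturned values, as a description across 43 probes that share libraries. The 2 Cy5 arrays correlated with a Pearson r of 0.531 across members, and the 2 Cy3 arrays with one of -0.1, against 0.435 and 0.264 over all probes. The dye-swapped arrays correlated at 0.523 in replicate 1 and at -0.415 in replicate 2, so the pairs differed in sign among members as well. Over all 12847 probes the corresponding r was 0.236 and -0.054, and Spearman's rho was 0.191 and -0.467, against 0.369 and -0.423 among members. Arrays of opposite dye and different number were compared as well. Cy5 of replicate 1 with Cy3 of replicate 2 had an r of -0.315 among members and -0.219 over all probes. For Cy5 of replicate 2 with Cy3 of replicate 1 the r was 0.051 and -0.069.

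Other genes of translation were read from lists chosen by function. Of all probes tested, 48.7% had a negative turned mean and 53.2% a positive unturned one. Of 28 probes of initiation factors, which bring the ribosome to the mRNA, 26 had negative turned means, with a median of -0.183. An unadjusted p under 0.05 by limma was found for 14 of the 28, all negative. This is a share of 50%, against 23.2% of all probes on either side and 13.6% on the negative side. The negative side was seen on turned values only: unturned, 17 of the 28 were positive, with a median of 0.0198. On that scale 1 of them had an unadjusted p under 0.05 by limma, where 5.57% of all probes had one. The 2 largest turned values were eIF3a, at -0.39, -0.47, -0.189 and -0.612 (adjusted p = 0.117 in limma), and eIF5B, at -0.455, -0.606, 0.041 and -0.595. All 7 probes of elongation and release factors had negative turned means, with a median of -0.127, and 4 of the 7 had negative unturned means, with a median of -0.0188. Of 22 genes listed under ribosome assembly 15 were negative on turned values, with a median of -0.104, and 9 on unturned values, with a median of 0.0228. Among them was vito, a nucleolar protein gene, at -0.3 ± 0.04. The largest value of that list was that of Rrp1 (-0.32 ± 0.09), which in the fly is a DNA repair gene and no assembly factor. Of 7 genes listed as regulators of the ribosome or of growth 6 were negative on turned and 3 on unturned values, led in turned size by the growth inhibitor gene Tsc1 at -0.34 ± 0.28 and raptor, of the TOR complex, at -0.21 ± 0.15.

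Mitochondrial ribosomal proteins had 36 of 69 probes positive on turned values, with a median of 0.0048 and a mean of 0.0249 ± 0.0366. On unturned values 25 of the 69 were positive, with a median of -0.0272. Of all probes tested, 51.3% were positive on turned and 53.2% on unturned values. The largest turned means of this list were those of mRpS33 at 0.35 ± 0.18 and mRpS17 at 0.28 ± 0.06. After adjustment over all probes, limma called 0 probes of these 5 lists. The distance between the cytosolic ribosome and the translation factors is given as values, since no test between lists was made.

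**Figure D4:**
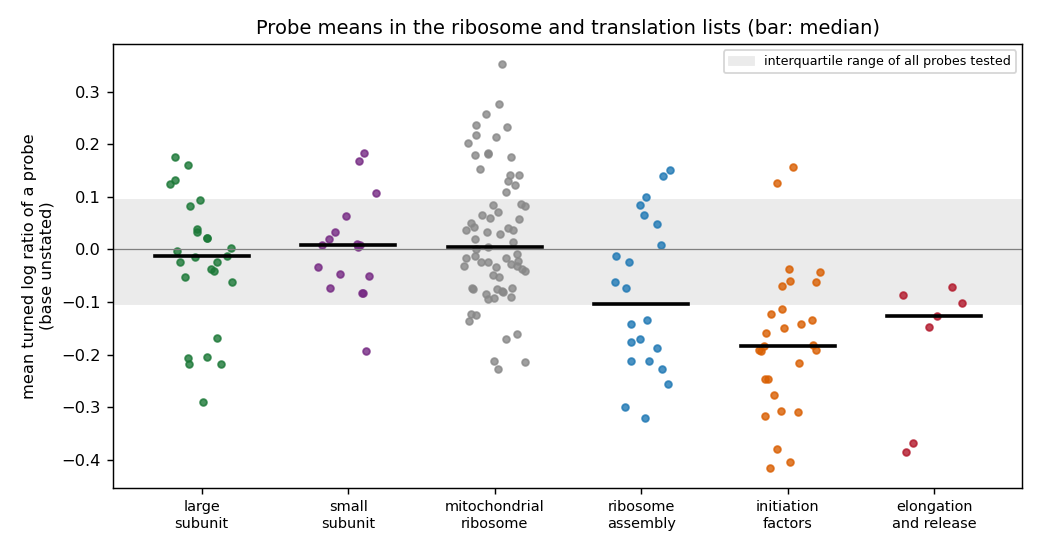
Mean turned log ratio of each probe (y axis, base unstated) in 6 lists of ribosome and translation genes (x axis); bars are medians, points are spread sideways for clarity, and the grey band is the interquartile range of all probes tested. Large- and small-subunit probes have medians of -0.0129 and 0.008 inside the band, and initiation factors have one of -0.183 below it.

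Facts of the whole series that touch these values are few. The arrays measured 13815 to 15330 probes each, and their number limits the precision. SF2, the gene of the transgene, had turned values of -0.092, -0.245, -0.224 and -0.339 (adjusted p = 0.158 in limma). Markers of tissues in the extract were counted by the sign of their probes' means, where 51.3% of all probes were positive on turned and 53.2% on unturned values. Positive turned means were found for 6 of 7 glial, 0 of 7 larval muscle, 0 of 3 fat body, 7 of 11 eye disc, 3 of 9 salivary gland and 2 of 7 haemocyte probes. Positive unturned means were found for 3, 4, 1, 10, 2 and 3 of these. Their part in the values of single ribosomal proteins was not tested.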

How the data were processed

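The deposited scores are log ratios of the 2 channels of each array, made by the authors. The values show 3 decimals and medians near 0. The sources used here do not give the background correction, normalisation, logarithm base or software. The marker -10000, in 73 cells, was read as missing. Arrays were centred on their medians, the signs of those with dASF/SF2 in Cy3 turned, and the dye-swapped arrays of a replicate averaged. The pairing of same-numbered arrays as dye swaps was assumed from their numbers, and the block correlation on turned values was -0.408. The mean of 2 replicates was tested against 0 with limma 3.58.1 in R 4.3.3 (lmFit, eBayes) over 12847 probes. P-values were adjusted by Benjamini-Hochberg (threshold 0.05). The fit was also run on simulated data with effects larger than any probe mean here and without a dye effect. That run checks the code and not how the fit performs on these data. Probe genes came from GEO's platform annotation; all 47 members matched RefSeq by Entrez identifier, with 0 symbols changed. No genome build is named, so no coordinates are printed. Named were the extremes of each subunit and scale, stalk, copies, ubiquitin fusions, genes with several probes, members with missing values, SF2 and at most 2 probes a list; other members are named as part of the set. Members and lists were chosen with earlier results of these data known. Alternatives changed missing values, exact zeros, centring, scaling, probes per gene, arrays, block and dye term.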

Additional observations from a re-analysis of the deposited data

Results flagged for a closer look

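On turned values 5 member probes lay on one side on both arrays of one dye orientation and on the other side on both arrays of the other, so that their unturned values shared a sign. The difference between the orientations was not tested. Their unturned means were -0.339 for RpS29 (probe 4607), -0.314 for RpL37-2, 0.125 for RpS5b, 0.0882 for RpL3 (probe 5245) and 0.0655 for RpS15Ab (probe 6909). The other RpS29 probe, at -0.038, and the other RpS15Ab probe, at 0.0545, did not share this pattern on all 4 arrays. A share of 13.6% of all probes tested had 1 unturned sign on all 4 arrays.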

How the results depend on the processing

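The arrays are few, and the signal over background of each spot was not analysed here. On turned values the count of all probes called by limma, 0, became 3 with exact zeros read as missing, 3 with 1 value per gene and 1119 with the replicate block, and ranged from 0 to 184 without 1 array (184 lacking Cy5 of replicate 1, 66 lacking Cy3 of replicate 1). The count of ribosomal proteins called, 0, became 1 (RpL36A) with the replicate block and stayed 0 in every other fit run; the unturned counts stayed 0 in all fits run, the block included, where between 465 and 1583 probes had an unadjusted p under 0.05. The correlation estimated with the block was -0.408. By limma the adjusted p of RpL36A lay between 0.0914 and 0.402 in the other fits on single probes. With 1 value per gene the smallest adjusted p of a member was 0.0851 by limma. The turned large-subunit mean was -0.0193 with at least 1 array per replicate, -0.0222 without centring, -0.0343 with 1 value per gene, -0.0201 as a median, and from -0.0399 to -0.0055 without 1 array. The turned small-subunit mean ranged from -0.019 to 0.0243 without 1 array, so its sign is not settled. The turned difference of the subunits was -0.0066 by medians and 0.0217 without the further copies and relatives. Unturned, the large-subunit mean was -0.0164 as a median and from -0.0472 to -0.0146 without 1 array. The unturned difference was -0.0202 with at least 1 array per replicate and 0.0233 without the further copies and relatives. It ranged from -0.0279 to 0.013 without 1 array. The cause was not tested. The turned sign of single members was the same without any 1 array for 20 of 43, among them all 7 with an unadjusted p under 0.05, and under scaling it changed for 2 of 43.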
